A study of Rattus norvegicus with 10 samples.

Results

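The cathepsins are the main proteases of the lysosome, and their transcripts were followed here in rat milk whey over lactation. All probes whose gene name in the array files was Cts followed by a single letter, with or without a digit, were taken, which gave 22 probes for 17 genes. The 10 genes with the highest mean processed signal over the whey arrays were kept out of 35469 gene names on the array: Ctsd, Ctsb, Ctsa, Ctsh, Ctsl1 (now named Ctsl), Ctsc, Ctsf, Ctss, Ctsz and Ctsq. The members were thus chosen by their processed signal in whey, so that the height of that signal is a description and no result. At the limit of the choice, the tenth gene, Ctsq, had a mean processed signal of 4.79, and the eleventh, Ctse, one of 2.82. Ctsq was well above background on 0 of 9 whey arrays and Ctse also on 0 of 9, so the brightest 9 genes are the measured ones. These 9 were well above background on every whey array, and all 9 passed the filter on low values.

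The samples came from 3 dams of the inbred strain F344/N, bought pregnant at an age of 14 weeks, untreated except for oxytocin and anaesthesia at milking. Whey is the milk fluid freed of fat, cells and casein by centrifugation, and here it was then filtered to remove remaining debris of cells. It was made from each dam on d 2 (colostrum), d 9 and d 16 after birth, which gave 3 arrays per day and 9 in all. Serum was taken from the dams on d 21, and the RNA of the 3 dams was pooled on 1 array, so serum has no replicate and entered no test. The cRNA of each array was amplified from 100 ng of RNA. Levels below are log2 values after quantile normalization, in which every array is given the same distribution of signals, and a level of one probe cannot be set against that of another. Whey is a bulk fluid, so that less RNA from a kind of cell and fewer such cells cannot be told apart.

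Cathepsins are made as inactive precursors, carried to lysosomes by mannose 6-phosphate receptors and activated in acid. Cathepsin D is an aspartic protease, cathepsin A a serine carboxypeptidase, and cathepsins B, C, F, H, L, Q, S and Z are cysteine proteases of the papain family, held in check by cystatins. In the mammary gland, cathepsins B and D are known for tissue breakdown after weaning, and the proenzyme of cathepsin D occurs in milk. In antigen-presenting cells, cathepsins S, L and F cut the invariant chain away from class II molecules.

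The 75th percentile of the processed signal ran from 12.5 to 83.2 over the whey arrays and was 4.11 on the serum array, and over all probes r was 0.950 to 0.984 between arrays of a day. Mammary epithelial markers were high: 13 of 13 on the array were well above background on each day, with a summed normalized signal of 1043430 to 1441700 in whey and 7901 in serum. None of 6 liver markers was well above background in whey. The d 16 whey arrays and the serum array lay on a slide of their own that was scanned on a later day, so day and slide cannot be told apart in any comparison with d 16. Of the d 2 arrays, replicate 3 shared its slide with the 3 d 9 arrays.

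The cathepsins followed different courses over lactation. Ctsd and Ctsh were lower on d 9 than on d 2, Ctsb and Ctss were higher on d 16 than on d 2, and Ctsh stayed low on d 16, all by quantiles, while the changes of Ctsd and Ctsh to d 9 turned sign when the arrays were scaled to spike-in controls. From d 2 to d 9, limma called 2 of the 9 genes, both lower, against 17.6% of all 16849 probes tested and 6.36% called lower. From d 2 to d 16 it called 3 of 9, with Ctsb and Ctss higher and Ctsh lower, against 28.5% of all probes. From d 9 to d 16 it called Ctss alone, higher, against 1.42% of all probes and 0.564% called higher. Over the 3 days together the F test called Ctsd, Ctsb, Ctsh and Ctss, against 25.6% of all probes. The share of called cathepsins was thus near the background in each comparison with d 2. The values did not overlap for 4 of the 9 genes between d 2 and d 9 (Ctsd, Ctsh, Ctsl1 and Ctsz), against 38.8% of all probes. They did not overlap for 4 between d 2 and d 16 (Ctsb, Ctsh, Ctsc and Ctss), against 48.2%, and for 7 between d 9 and d 16 (all but Ctsf and Ctsz), against 29.3%. Between dams, the F test called 0 of the 9 genes and 0 of all probes, while 1775 probes (10.5%) had an unadjusted p under 0.05, among them no cathepsin by its brightest probe.

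**Figure D1:**
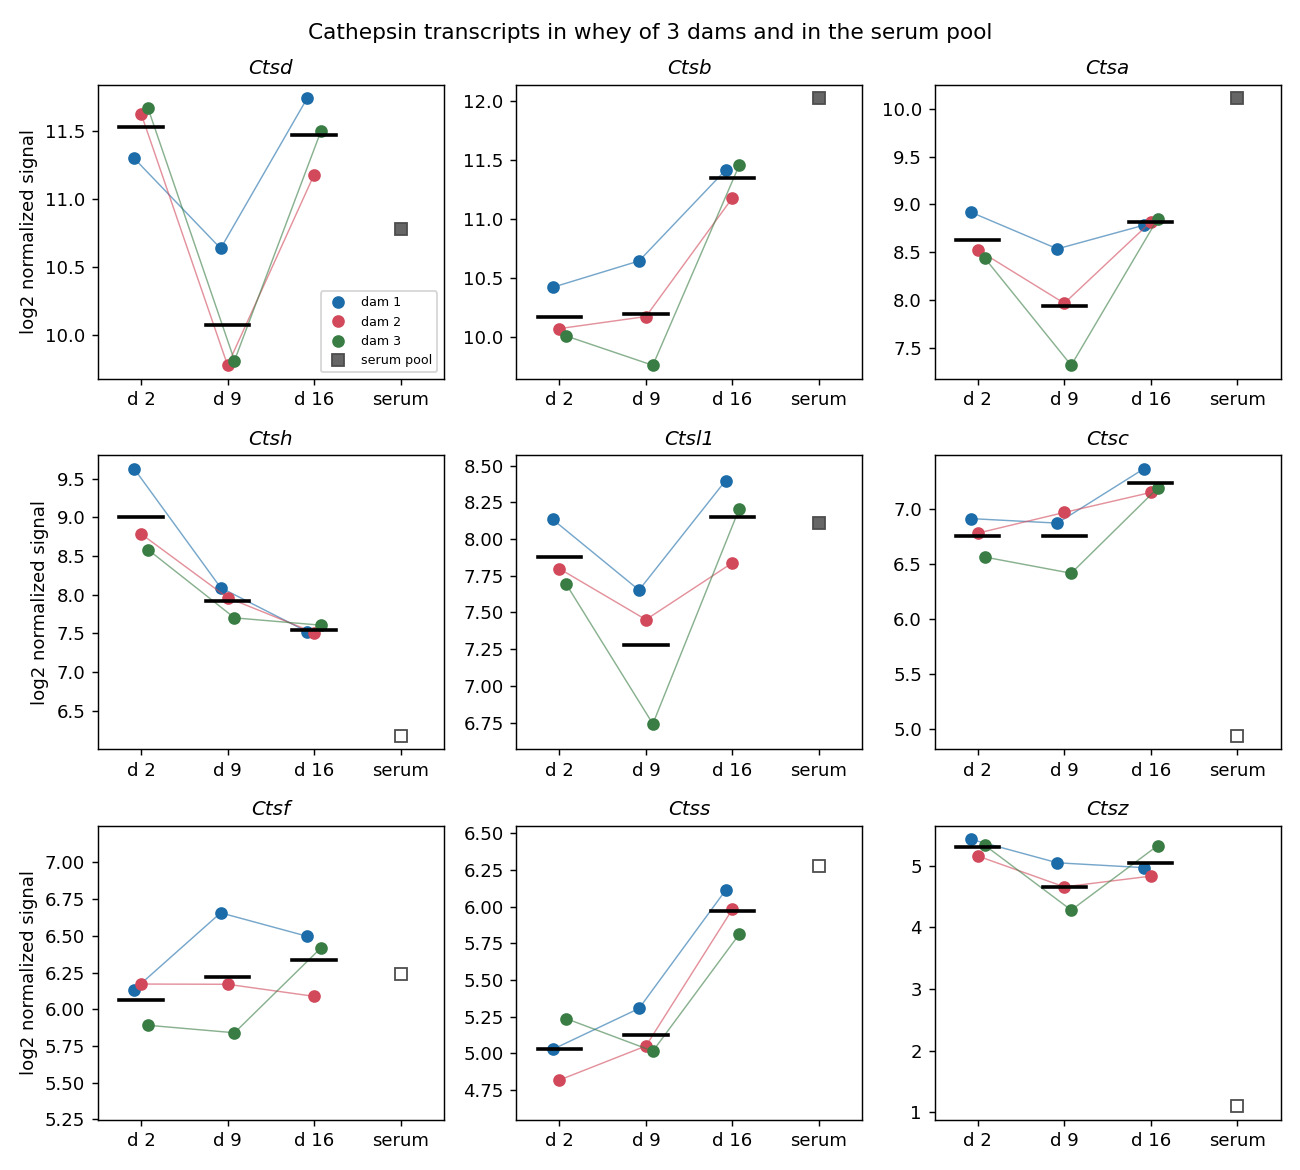
Log2 normalized signal (y axis, scaled for each gene) of the brightest probe of each of the 9 measured cathepsins in d 2, d 9 and d 16 whey and in serum. Circles are single whey arrays joined by dam, black bars are the means of 3 dams, squares are the single serum pool, and an open square was not well above background; Ctsd dips to a mean of 10.07 on d 9, Ctsh falls from 9.00 to 7.55, and Ctsb and Ctss reach 11.35 and 5.97 on d 16.

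Ctsd, which encodes the aspartic protease of the family, had the highest signal in whey and by quantiles had the largest change of the 9 genes between d 2 and d 9, although with spike-in scaling its change was the smallest (0.00). Its probe lies on the minus strand at chr1:202619669-202619727 in build rn4, the build of the array files. Its levels were 11.30, 11.63 and 11.67 on d 2, 10.63, 9.78 and 9.81 on d 9, and 11.74, 11.18 and 11.50 on d 16, in the order of dams 1 to 3. All 3 dams were lowest on d 9, and the values of d 9 overlapped with those of neither other day. From d 2 to d 9 Ctsd fell by 1.46 on the log2 scale (SE 0.26, limma adjusted p 0.011), a 2.74-fold fall. With the slide as a fixed block the change was -1.59 with a limma adjusted p of 0.087. That fit sets d 9 against d 2 replicate 3, the one d 2 array on the slide of d 9, so its change rests on 1 d 2 array. From d 9 to d 16 the level was higher by 1.40 (SE 0.26) in all 3 dams, and with an adjusted p of 0.0515 this missed the threshold. It passed in 7 of 22 alternative settings, among them scaling by the 75th percentile (adjusted p 0.0467). Between d 2 and d 16 the difference was -0.06 (SE 0.26, adjusted p 0.89).

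Of the 8 cathepsins with a sequence around the gene start at hand, Ctsd had the longest match to a motif of lysosomal genes. The letters CACGTG, the core of the motif bound by the lysosomal regulator TFEB, were searched on both strands in a window of 250 bases before to 50 after the gene start, in RefSeq sequences of assembly GRCr8. They are in 6.42% of 33469 such windows. Of the 10 genes, 8 had a window, Ctsb and Ctsq had none, and the letters were found in Ctsd (2 matches) and Ctsf (1 match) and not in Ctsa, Ctsc, Ctsh, Ctsl1, Ctss or Ctsz. The match of Ctsd nearest to its start reads TCACGTGA, an overlapping longer form that 0.777% of the windows hold. Both stretches are shown because they let the family be compared at its regulatory sequence, with CACGTG in capitals. The Ctsd stretch is the 250 bases upstream of the start on the minus strand (chr1:206968822-206969071), and the Ctsf stretch is on the plus strand (chr1:211581993-211582052).
Ctsd: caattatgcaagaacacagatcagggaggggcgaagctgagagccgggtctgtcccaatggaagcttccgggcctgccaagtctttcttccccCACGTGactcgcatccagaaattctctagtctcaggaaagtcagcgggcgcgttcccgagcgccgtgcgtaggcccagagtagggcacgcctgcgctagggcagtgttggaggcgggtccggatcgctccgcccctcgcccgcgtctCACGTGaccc
Ctsf: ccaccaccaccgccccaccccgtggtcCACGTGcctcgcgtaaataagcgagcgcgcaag
The genes with the motif did not share a course: Ctsd dipped on d 9, whereas Ctsf, described below, passed no test by quantiles. A match of letters is a description and does not show that a factor binds there.

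Ctsa encodes the carboxypeptidase that also protects beta-galactosidase and neuraminidase in the lysosome. It was measured by 3 probes at chr3:155871808-155871867, chr3:155871567-155871626 and chr3:155870436-155871053, all on the plus strand. The brightest gave 8.92, 8.52 and 8.44 on d 2, 8.53, 7.96 and 7.31 on d 9, and 8.78, 8.82 and 8.85 on d 16. Each dam had its lowest level on d 9, and d 9 overlapped with d 2 but not with d 16. The difference from d 2 to d 9 was -0.69 (SE 0.29, adjusted p 0.135) and that from d 9 to d 16 was 0.88 (SE 0.29, adjusted p 0.171), so neither passed. Without d 9 replicate 1, the change from d 2 to d 9 passed (adjusted p 0.0381). The 3 probes followed each other over the 9 arrays with r of 0.927 to 0.984. The dimmest differed from the brightest in that its d 9 and d 16 values overlapped and its difference from d 2 to d 16 was -0.04, against 0.19 for the brightest, and neither of these passed (adjusted p 0.937 and 0.655).

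Ctsl1, for cathepsin L, a broad endopeptidase, had the same outline. Its brightest probe (chr17:6293891-6293950, plus strand) gave 8.13, 7.80 and 7.69 on d 2, 7.65, 7.45 and 6.74 on d 9, and 8.40, 7.84 and 8.21 on d 16. The d 9 values lay below those of d 2 and of d 16 without overlap. The differences of -0.59 (SE 0.27, adjusted p 0.157) from d 2 to d 9 and 0.87 (SE 0.27, adjusted p 0.15) from d 9 to d 16 did not pass the test. The other probe of Ctsl1 is shown as an example of the 60-base sequences behind these values, because it lies at another place of the gene (chr17:6290718-6290777, plus strand) and still followed the first with r = 0.988.
Ctsl1 probe: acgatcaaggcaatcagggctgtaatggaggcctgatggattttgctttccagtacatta
It gave 0.86 (SE 0.29, adjusted p 0.178) from d 9 to d 16, within the SE of the brighter probe, but its d 2 and d 9 values overlapped, which those of the brighter probe did not.

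Ctsb encodes an endopeptidase that can also trim peptides from their carboxyl end. Its probe (chr15:42423613-42423672, plus strand) gave 10.42, 10.07 and 10.01 on d 2, 10.64, 10.17 and 9.76 on d 9, and 11.41, 11.18 and 11.46 on d 16. The d 2 and d 9 values overlapped, and all d 16 values lay above both. Between d 2 and d 9 Ctsb differed by 0.03 (SE 0.23, adjusted p 0.951), and it rose by 1.18 from d 2 to d 16 (SE 0.23, limma adjusted p 0.00903), a 2.27-fold rise. From d 9 to d 16 the difference of 1.16 (SE 0.23) was in all 3 dams but missed the threshold with an adjusted p of 0.0626. Over 22 alternatives, the rise from d 2 to d 16 passed in 21, all but spike-in scaling, with a log2 change of 1.05 to 1.63.

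Ctss encodes the cysteine protease best known for cutting the invariant chain in antigen-presenting cells, and it was the only cathepsin called between d 9 and d 16. Its brightest probe (chr2:190466683-190466742, plus strand) gave 5.03, 4.82 and 5.24 on d 2, 5.31, 5.05 and 5.02 on d 9, and 6.11, 5.98 and 5.81 on d 16. All d 16 values lay above those of both earlier days, which overlapped. Ctss rose by 0.94 from d 2 to d 16 (SE 0.16, limma adjusted p 0.00471), a 1.92-fold rise, and by 0.84 from d 9 to d 16 (SE 0.16, limma adjusted p 0.0492). With normexp background correction the rise from d 2 to d 16 was smaller, at 0.35. The call from d 9 to d 16 was lost on leaving out any one of the 9 whey arrays, with adjusted p of 0.0576 to 0.154, and with the dam as a block (adjusted p 0.0821). It was also lost with the 75th percentile (limma adjusted p 0.055) and with normexp (limma adjusted p 0.0678), and it held in 6 of 22 alternatives. The other probe of the gene is printed because it repeats the result at another place of the transcript (chr2:190466474-190466533, plus strand).
Ctss probe: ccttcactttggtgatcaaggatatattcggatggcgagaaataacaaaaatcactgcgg
It followed the first with r = 0.990 and rose by 0.87 from d 2 to d 16 (SE 0.17, limma adjusted p 0.00849), with 0.84 from d 9 to d 16 (adjusted p 0.0621).

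Ctsh encodes an aminopeptidase and was the one cathepsin that fell over the whole period. Its probe is printed because it is the only measure of the gene. It is annotated on the plus strand at chr8:94986941-94989247, a span of 2307 bases for a probe of 60, so the files place it in pieces.
Ctsh probe: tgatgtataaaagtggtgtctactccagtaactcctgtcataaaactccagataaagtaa
Its levels were 9.63, 8.78 and 8.58 on d 2, 8.09, 7.96 and 7.70 on d 9, and 7.52, 7.51 and 7.61 on d 16. No 2 days overlapped, and the level was lower in each dam at each step. Ctsh fell by 1.08 from d 2 to d 9 (SE 0.26, limma adjusted p 0.0285) and by 1.45 from d 2 to d 16 (SE 0.26, limma adjusted p 0.00643), a 2.73-fold fall. The change of -0.37 from d 9 to d 16 did not pass (adjusted p 0.478). Within the slide that held both days, d 9 was lower than d 2 replicate 3 by a log2 difference of -0.66, and with the slide as a fixed block the adjusted p was 0.329. The call from d 2 to d 9 held in 15 of 23 alternatives, and that from d 2 to d 16 in 21 of 22.

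Ctsc encodes dipeptidyl peptidase I, which activates the serine proteases of immune cell granules. Its probe (chr1:144661035-144661094, plus strand) gave 6.91, 6.78 and 6.56 on d 2, 6.87, 6.97 and 6.42 on d 9, and 7.37, 7.15 and 7.19 on d 16. The d 16 values lay above all others, but the difference of 0.48 from d 2 to d 16 (SE 0.18, adjusted p 0.0753) did not pass, and it passed in 5 of 22 alternatives. Ctsz encodes cathepsin Z, also named X, a carboxypeptidase, and the files give its probe no position. It gave 5.43, 5.16 and 5.33 on d 2, 5.05, 4.66 and 4.28 on d 9, and 4.97, 4.83 and 5.33 on d 16. The d 9 values lay below those of d 2 in every dam, with a difference of -0.64 (SE 0.22, adjusted p 0.0795), and passed without d 9 replicate 1 (adjusted p 0.0407). Ctsf, another protease of the invariant chain, was read at chr1:207474500-207474559 on the plus strand and gave 6.13, 6.17 and 5.89 on d 2, 6.66, 6.17 and 5.84 on d 9, and 6.50, 6.09 and 6.42 on d 16. All 3 days of Ctsf overlapped, and its largest difference was 0.27 (SE 0.22, adjusted p 0.398), from d 2 to d 16.

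Ctsq, a placental cathepsin of rodents, had 2 probes, which lie apart, at chr17:9404288-9404351 on the minus strand and chr17:9348993-9349052 on the plus strand. Neither was well above background on any array, so their levels of 0.97 to 2.85 in whey are not compared between days. Probes of different cathepsins shared at most 10 bases in a row over 225 pairs of probes. Aligned without gaps, the brighter Ctsq probe matched the Ctsm probe at 71.9% of 57 bases and the Ctsj probe at 68.9% of 45. The Ctsm and Ctsj probes matched each other at 66.7% of 42 bases.

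**Figure D2:**
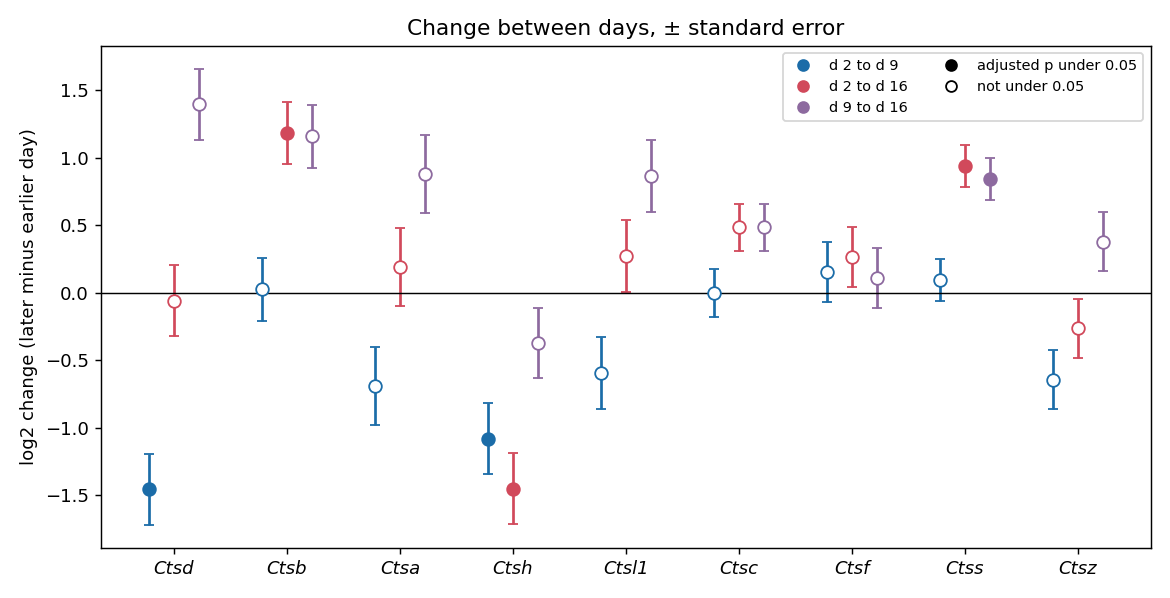
Log2 change of the 9 measured cathepsins (y axis, later minus earlier day) from limma, with bars of 1 standard error, for d 2 to d 9, d 2 to d 16 and d 9 to d 16. Filled circles had an adjusted p under 0.05: Ctsd (-1.46) and Ctsh (-1.08) from d 2 to d 9, Ctsb (1.18), Ctss (0.94) and Ctsh (-1.45) from d 2 to d 16, and Ctss (0.84) from d 9 to d 16, by quantiles, with the sign of Ctsd and Ctsh to d 9 turned by spike-in scaling.

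The direction of these changes is relative to the bulk of the transcripts. With the arrays scaled to 9 spike-in control probes in place of quantiles, the median of all tested probes rose on the log2 scale by 1.52 (d 2 to d 9) and 0.59 (d 2 to d 16), and it changed by -0.93 (d 9 to d 16), against 0.11, 0.04 and -0.06 by quantiles. All 9 cathepsins were then at or above their d 2 level on d 9, with Ctsd at 0.00 and Ctsh at 0.40, and none of the quantile calls passed in any comparison, while Ctsf passed as higher from d 2 to d 9 (adjusted p 0.046). Taken relative to the median of all probes, Ctsd stood at -1.52 and Ctsh at -1.13 from d 2 to d 9 in the spike-in scaling, against -1.57 and -1.19 by quantiles. From d 2 to d 16 the spike-in values relative to that median were 1.04 for Ctsb, 0.97 for Ctss and -1.49 for Ctsh, against 1.14, 0.90 and -1.49. Spike-in scaling shifts all probes of an array alike, so these relative values are those of any scaling by 1 factor per array and are no separate check of the order of the genes. The median log2 change of the 9 cathepsins was -0.59, 0.27 and 0.84 over the 3 comparisons by quantiles and 0.90, 0.84 and -0.06 by spike-ins.

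**Figure D3:**
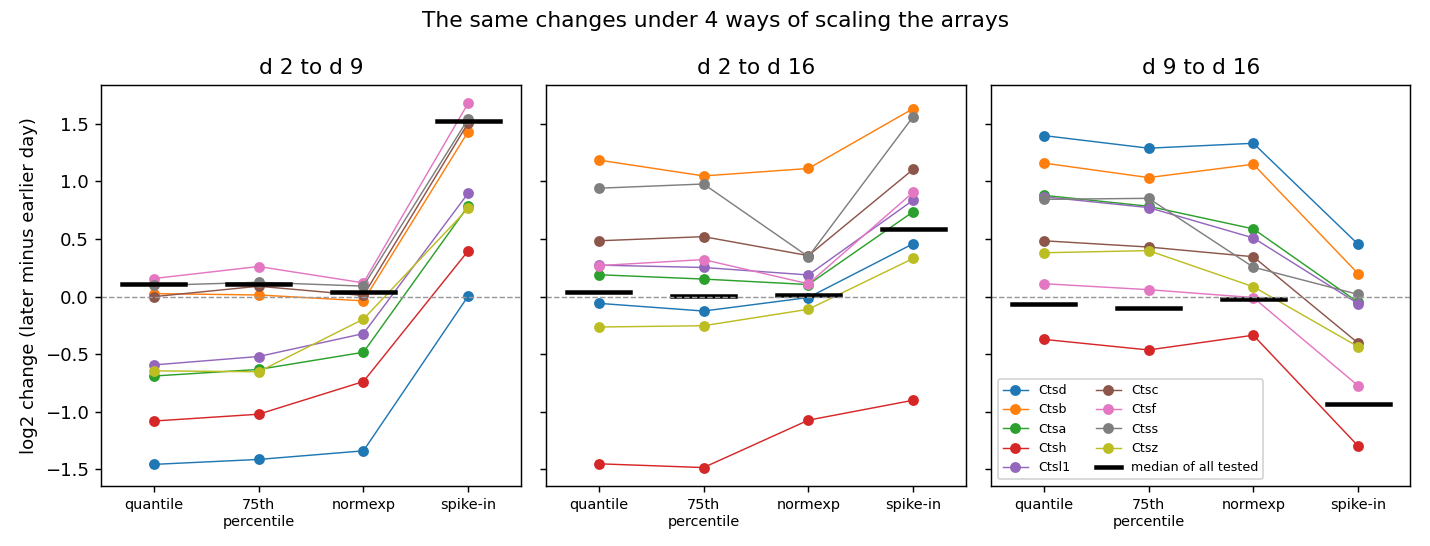
Log2 change (y axis, later minus earlier day) of the 9 measured cathepsins, a line each, under 4 scalings of the arrays (x axis), with the median of all tested probes as a black bar. Spike-in scaling moves all genes together, and Ctsd and Ctsh stay below the bar from d 2 to d 9, where the bar stands at 1.52.

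Over the 9 whey arrays, which share quantile normalization, pairs of cathepsins correlated with r from -0.659 (Ctsh and Ctss) to 0.935 (Ctsa and Ctsl1). Ctsb followed Ctsc with r = 0.914 and Ctss with r = 0.909, and Ctsd followed Ctsa (0.808), Ctsl1 (0.803) and Ctsz (0.793). Mean levels were lowest on d 9 for Ctsd, Ctsa, Ctsl1 and Ctsz and highest on d 16 for Ctsb, Ctss and Ctsc, while Ctsh was highest on d 2. Among 6290 other named genes measured on all whey arrays, those most like Ctsh were the histone genes Hist2h3c2 (r = 0.991), Hist1h2an (0.990) and Hist3h2a (0.990). Those most like Ctsa were Ifi30 (0.987), a lysosomal thiol reductase of antigen presentation, the mast cell tryptase Tpsab1 (0.968) and Bsg (0.954). Those most like Ctsb were Reep5 (0.986), Nucb2 (0.982) and the calmodulin gene Calm2 (0.977), and Calm2 was also among the 3 most like Ctss (0.947), after the autophagy gene Gabarapl1 (0.955). The first genes for the others were Rasl10a for Ctsd (0.980), Htr6 for Ctsl1 (0.980), Anp32b for Ctsc (0.971), Dhrs3 for Ctsz (0.955) and Sfrp1 for Ctsf (0.943). These are descriptions over 9 arrays.

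Inhibitors and partners of the cathepsins were taken from lists of their known functions. Of 20 inhibitor genes on the array, 10 were tested, and from d 2 to d 16, 5 of them rose and 2 fell, where 16.0% of all probes were called higher and 12.4% lower, with a median log2 change of 1.09 against 0.04 over all probes. Cst3, for cystatin C, the main secreted inhibitor of cysteine cathepsins, rose by 2.55 (SE 0.27, limma adjusted p 0.000965), from a mean of 8.74 on d 2 over 9.97 on d 9 to 11.28 on d 16. Cst6, for another secreted cystatin, rose by 1.57 (SE 0.18, limma adjusted p 0.00109). Cst11, not well above background on d 2, rose by a floored 2.53-fold (limma adjusted p 0.0142). In a floored fold, levels below the lowest one well above background on an array are raised to it, which gives no strict minimum. Serpinb9 and Slpi, well above background on 7 and 5 of 9 whey arrays, rose by a fitted 2.82 and 2.81 (limma adjusted p 0.0163 and 0.0351). Both are known as inhibitors of serine proteases. Csta, an intracellular cystatin, was well above background in d 2 whey alone and a floored 7.23-fold higher there than on d 16 (limma adjusted p 0.000155). Kng1, for kininogen, not well above background on d 16, had a d 2 level a floored 4.17-fold that of d 16 (limma adjusted p 0.0085). Cst11, Csta and Kng1 entered the test only through the days of their higher levels. Their calls, and the list counts that hold them, are thus descriptions. Cstb, an intracellular cystatin, had a log2 difference of 0.09 (SE 0.15, adjusted p 0.683). Scaled to spike-ins, 4 of the 10 inhibitors passed as higher and 1 as lower, where 764 of all 16849 probes were called.

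Genes that carry cathepsins to the lysosome or regulate its genes were called about as often as all probes. Of 13 tested, 3 rose and 1 fell from d 2 to d 16 (30.8%, against 28.5% of all probes), with a median log2 change of -0.05 by quantiles and 0.46 by spike-ins. Both mannose 6-phosphate receptors rose, M6pr by 0.68 (SE 0.15, limma adjusted p 0.0137) and Igf2r by 0.95 (SE 0.18, limma adjusted p 0.00756). The sorting receptor Sort1, well above background on only 1 d 2 array, rose by a fitted 1.70 (SE 0.36, limma adjusted p 0.012). Gga2, an adaptor that loads these 3 receptors into vesicles, fell by 1.98 (SE 0.29, limma adjusted p 0.00313). Of 17 proton pump genes, which acidify the lysosome, 5 rose and 1 fell (35.3%, against 28.5% of all probes), with a median of 0.09. Atp6v0b rose by 1.37 (SE 0.18, limma adjusted p 0.0018), Atp6v0e1 by 0.52 (SE 0.11, limma adjusted p 0.0124) and Atp6v0c by 0.71 (SE 0.19, limma adjusted p 0.0279), and Atp6v1e1 fell by 0.90 (SE 0.16, limma adjusted p 0.0062). Scaled to spike-ins, 1 of the 13 sorting genes and 0 of the 17 pump genes passed, where 764 of all 16849 probes were called.

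Of 20 lysosomal hydrolases other than cathepsins, 8 rose and 0 fell from d 2 to d 16, against 16.0% of all probes called higher and 12.4% called lower, with a median of 0.62, and 12 did not pass. The carboxypeptidase gene Scpep1 rose by 1.10 (SE 0.13, limma adjusted p 0.00129). The DNase gene Dnase2, well above background on only 1 d 2 array, rose by a fitted 2.96 (SE 0.59, limma adjusted p 0.00974). The acid phosphatase gene Acp2, not well above background on d 2, was on d 16 a floored 2.93-fold higher (limma adjusted p 0.0152). Of 16 genes of lysosomal membrane proteins and cofactors, 6 rose and 1 fell (43.8%, against 28.5% of all probes), with a median of 0.37. Cd68, which is also a macrophage marker and was not well above background on d 2, was on d 16 a floored 4.996-fold higher (limma adjusted p 0.00112). Tmem192 rose by 1.31 (SE 0.16, limma adjusted p 0.00137) and the tetraspanin gene Cd63 by 1.48 (SE 0.22, limma adjusted p 0.003). Gm2a, for an activator of ganglioside breakdown, was not well above background on d 16 and a floored 7.996-fold lower there than on d 2 (limma adjusted p 0.000389). Acp2, Cd68 and Gm2a entered the test only through the days of their higher levels. Their calls, and the list counts that hold them, are thus descriptions. Of 5 genes tested in a list of other cathepsin and cathepsin-like genes, which also holds Ctsa, 2 rose from d 2 to d 16. Of all probes, 16.0% were called higher. Napsa rose by a floored 5.46-fold and Tinagl1 by a floored 1.98-fold. Neither was well above background on d 2, so both entered the test only through later days, and this count is a description. Scaled to spike-ins, 2 of the 20 hydrolases passed as higher, and of the 16 membrane genes 1 passed as higher and 1 as lower. In that scaling 764 of all 16849 probes were called.

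The list of the invariant chain, which cathepsins S, L and F cut, and of class II genes had the highest median of these lists. Of 6 tested, 4 rose from d 2 to d 9, where 11.3% of all probes were called higher, and over the longer step to d 16 5 rose, where 16.0% were, with a median log2 change of 2.97. Cd74, the invariant chain, rose from a mean of 3.79 on d 2 over 5.85 to 7.19 on d 16, by 3.41 (SE 0.35, limma adjusted p 0.000744). The class II genes RT1-Bb and RT1-Ba, not well above background on d 2, were on d 16 a floored 8.91-fold and 3.57-fold higher (limma adjusted p 0.000462 and 0.00177). Both entered the test only through d 9 and d 16, the days of their higher levels. Their calls, and the list counts that hold them, are thus descriptions. Scaled to spike-ins, 4 of the 6 passed from d 2 to d 16, where 764 of all 16849 probes were called. By quantiles, limma called 0 genes of these 7 lists from d 9 to d 16, where 1.42% of all probes were called. With normexp background correction it called 2 of 10 inhibitors, 2 of 20 hydrolases and 4 of 16 membrane genes as higher. It also called 1 of 17 pump genes and 1 of 6 class II genes as higher and 1 of 13 sorting genes as lower. In that setting 855 of all 16849 probes were called.

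**Figure D4:**
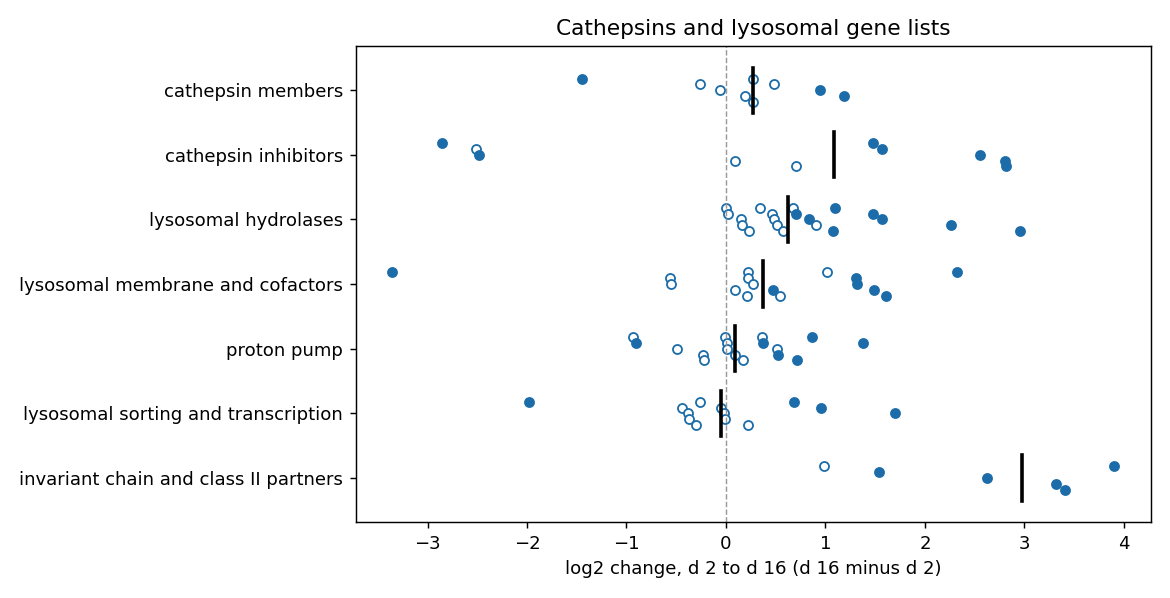
Log2 change from d 2 to d 16 (x axis, d 16 minus d 2) of every tested gene in the cathepsins and in 6 lists of inhibitors, lysosomal genes and class II partners, with medians as black bars. Values are fitted changes, also for genes whose change is given as a floored fold, and filled circles had an adjusted p under 0.05. The class II partners have a median of 2.97, the inhibitors 1.09 and the cathepsins 0.27.

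Macrophage markers moved in the same direction as Ctsb and Ctss. Of 17 on the array, 11 were tested, of which 9 rose and 1 fell from d 2 to d 16, against 28.5% of all probes called, and the summed normalized signal of the list was 860 to 949 on d 2, 1220 to 2516 on d 9, 4045 to 5120 on d 16 and 17812 in serum. Among them C1qb rose by 3.69, Fcer1g by 3.72 and Tyrobp by 2.95, while Cd14 fell by 1.88. Over the list, Csf1r, Itgam, Cd163, Msr1 and Mpeg1 were well above background on 0 of 9 whey arrays, Mrc1 on 1, Emr1 on 3, Cd68 on 6 and Cd14 on 9. Of 6 T and NK cell markers tested 3 rose, among them Cd3d by 1.84, and of 5 neutrophil markers tested 1 rose, Np4, by 1.03, where 16.0% of all probes were called higher. Summed neutrophil signal was 77.2 to 95.3 on d 2, 63.3 to 230 on d 9 and 101 to 465 on d 16. Of 13 mammary epithelial markers, all tested, 4 rose from d 2 to d 16, among them Csn2 by 1.04 and Lalba by 1.07. The 2 that fell were Krt8 and Krt18, where 12.4% of all probes were called lower. The part of any of these cells in the rises of Ctsb, Ctss and the class II genes was not tested.

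In serum, Ctsd, Ctsb, Ctsa, Ctsl1 and the dimmer probe of Ctss were well above background. The values come from 1 array of pooled RNA on which 3529 probes were well above background with a signal over 20, so they are given with no test. Ctsb stood at 12.02 and Ctsa at 10.11 in serum, above all their whey values, and Ctsd at 10.78 and Ctsl1 at 8.11, within the range of whey. By quantiles, the whey mean lay below serum by a log2 difference of -1.45 for Ctsb and -1.65 for Ctsa, and it differed by 0.25 for Ctsd and -0.34 for Ctsl1. Ctsh, Ctsc and Ctsz were not well above background in serum. By quantiles their whey means were a floored 3.93-fold, 3.94-fold and 3.76-fold higher, and for Ctsh and Ctsc this is the fitted fold. These folds are no strict minimum, since probes not well above background in serum stood there at up to 6.28 (Ctss). With normexp, which adds an offset of 50 to the signals, the differences were smaller. The whey means of Ctsh, Ctsc and Ctsz were then higher by 0.93, 1.40 and 0.68 on the log2 scale. Ctsf and the brightest probe of Ctss were not well above background in serum, and no fold is given for them. The other probe of Ctss was, with a whey mean minus serum of -1.14 by quantiles and 2.20 by spike-ins. By fitted values, which for probes not above background in serum rest on the floor, 1 of the 9 passed 4-fold in favour of whey and 0 in favour of serum, against 27.2% and 15.7% of 21180 probes. That gene is Ctsz, whose floored fold of 3.76 does not reach 4-fold. The shares of probes in favour of whey and serum were 17.0% and 20.1% with the 75th percentile (2 and 0 cathepsins), 2.45% and 4.12% with normexp (0 and 0), and 60.5% and 3.41% with spike-in scaling (9 and 0). With spike-in scaling, the whey mean was higher than serum for all 9, by a log2 difference of 2.04 for Ctsb and Ctsa, 3.37 for Ctsl1 and 3.83 for Ctsd, so the direction for Ctsb, Ctsa, Ctsl1 and the dimmer probe of Ctss turns with the scaling.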

How the data were processed

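Groups and dam numbers came from the sample titles. The authors hybridized cyanine 3 labelled cRNA to 1-colour Agilent arrays and read them with Feature Extraction 9.5.3.1. The deposited processed signal is an intensity with local background subtracted, not normalized between arrays, and the deposited mean and background intensities are unnormalized. The deposited flags (well above background, outlier) are other values of the same software. A deposited table of normalized values has 10 sample columns whose names match no label, and it was not used here.

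Log2 processed signals were quantile normalized over 10 arrays, flagged outlier spots (93 to 121 per array) were set to missing, and spots of a probe were averaged. Probes well above background with a signal above 20 on at least 1 whey array were tested (16849). Each gene is given by its probe of highest mean signal, and other probes are named where they differ. Days were compared with limma 3.58.1 in R 4.3.3 (lmFit, eBayes, 9 whey arrays, Benjamini-Hochberg over all tested probes, threshold 0.05), which was tested on simulated data. Where a probe was not well above background, a floored fold is given, in which levels below the floor of an array are raised to it. The floor is the lowest level of any probe well above background there. Other probes not well above background can lie higher, so a floored fold is no strict minimum. Genes not well above background on a day entered the test only through other days, where they were higher. Counts of lists and markers that hold such genes are descriptions. Samples with the same number are the same dam, and their deviations from the day means correlated with r of -0.018 to 0.218. Positions are those of the files (rn4). Accessions of 21 of 22 cathepsin probes matched the GRCr8 table, which was used for names and promoters alone. The members and lists were chosen with earlier results of these data known. From the lists, up to 3 genes in each direction with the smallest adjusted p from d 2 to d 16 were named; further ones were chosen after their values were seen. Lists of mast cell, B cell, erythroid and platelet markers were checked too, but only 1, 0, 1 and 1 of their genes were tested. On d 16 against d 2, 0, 0, 1 and 0 were called higher and 0, 0, 0 and 1 lower. Of all probes, 16.0% were called higher and 12.4% lower. With so few genes tested, these counts do not show whether the lists changed. Alternatives tried were other scalings, background corrections, filters, blocks, tests and left-out arrays.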

Additional observations from a re-analysis of the deposited data

How the results depend on the processing

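From d 2 to d 16, 3 or 4 cathepsins were called under every alternative except spike-in scaling, which called 0. Spike-in scaling called 764 of all 16849 probes there, against 4801 in the main run. The number of all probes called moved with the setting in every comparison. From d 2 to d 9 the count of 2 went to 1 (Ctsf, higher) with spike-in scaling, 1 without a filter on dim probes, and 0 with the slide as a fixed block and with the Tukey-Kramer test of the study's methods, in which 2 had an unadjusted p under 0.05. Spike-in scaling called 7072 of 16849 probes from d 2 to d 9 and the Tukey-Kramer test 1297, against 2969 in the main run. Without the filter on dim probes 2447 of 40988 were called. From d 9 to d 16 the count of 1 (Ctss) stayed at 1 with the 75th percentile, but the gene was then Ctsd. There 213 of 16849 probes were called, against 239 in the main run. With normexp background correction the count went to 2, Ctsd and Ctsb, without Ctss, and 855 of 16849 probes were called. The count went to 3 (Ctsd, Ctsb and Ctss) with a minimum signal of 100 and with probes kept if well above background on every whey array. In these 2 settings 618 of 9605 and 537 of 9831 probes were called. The same 3 were called with the slide as a random block and with a trend in the prior variance, where 676 and 654 of 16849 probes were called. The count went to 0 with spike-in scaling, without a filter on dim probes and with all probes of a gene averaged. In these settings 159 of 16849 probes, 131 of 40988 probes and 183 of 14269 genes were called. The count was also 0 with the Tukey-Kramer test, in which 3 cathepsins had an unadjusted p under 0.05. That test called 0 of all 16849 probes. The F test over days called 0 with spike-in scaling and 3 to 6 otherwise. Of 16849 probes, 2864 were called in that scaling and 4320 in the main run. With the dam as a replicate block the counts were 2, 3 and 4 from d 2 to d 9, d 2 to d 16 and over days, and 0 from d 9 to d 16, where Ctss was lost. From d 9 to d 16 that fit called 117 of 16849 probes.

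Leaving out 1 whey array at a time, 1 to 4 cathepsins were called from d 2 to d 9, 3 to 4 from d 2 to d 16, 0 to 2 from d 9 to d 16 and 3 to 5 over days. Of 16849 probes, 1266 to 2718, 2744 to 4886, 22 to 259 and 2390 to 4254 were called, in the same order. Ctsh was lost from d 2 to d 9 without d 2 replicate 2, d 9 replicate 2, d 9 replicate 3 or d 16 replicate 3, and Ctsb was lost from the F test without d 16 replicate 3. Without d 9 replicate 1, Ctsa and Ctsz were called from d 2 to d 9, and Ctsd and Ctsb in place of Ctss from d 9 to d 16. Called changes turned sign with spike-in scaling alone, for Ctsd (0.0046) and Ctsh (0.40) from d 2 to d 9, and 29 uncalled values changed sign under some setting. Against serum, the count of cathepsins more than 4-fold higher in whey by fitted values, 1 by quantiles (Ctsz), was 2 with the 75th percentile, 0 with normexp and 9 with spike-in scaling. The cause of these shifts was not tested. The membership was the same when genes were ranked by all their probes or by normalized signal.

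With 3 arrays per day, the precision is limited. Data were simulated for d 2 to d 16 over 16845 probes. In them, 100 genes were given a log2 change of 1 and 100 a change of 2. Of these, 38.0% and 79.0% were called. In the measured data, 28.5% of all probes were called from d 2 to d 16, a far larger share than was changed in the simulation. The adjusted p depends on that share, so these rates are not the recovery rates of the measured comparison. A cathepsin that was not called is not shown to be steady.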

Other observations

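The 7 genes of the name pattern that were left out by their low whey signal (Ctse, Ctsm, Ctsw, Ctsr, Ctsg, Ctsk and Ctsj) were well above background on 0 of 9 whey arrays. Ctse, an intracellular aspartic protease, Ctsg, the serine protease of neutrophil granules, and Ctsk, the collagen-cutting protease of osteoclasts, were well above background in serum, at 6.44, 7.62 and 7.29 on the log2 scale. Against whey these levels were a floored 24.1-fold, 51.9-fold and 44.3-fold higher by quantiles, on 1 array with no test. With normexp background correction, which adds an offset to the signals, the differences were far smaller. The whey mean minus serum was then -0.87 for Ctse, -1.99 for Ctsg and -1.97 for Ctsk on the log2 scale. The summed signal of the neutrophil markers was 11118 in serum and at most 465 in whey, and of 14 on the array 6 were well above background in serum. Their part in the Ctsg level was not tested. Ctsw, of cytotoxic lymphocytes, and the placental genes Ctsm, Ctsr and Ctsj were not well above background on any of the 10 arrays.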
